A study of Mus musculus with 48 samples.

Results

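The endoplasmic reticulum (ER) chaperones and unfolded protein response genes were followed as a group of 43 genes, of 39017 gene identifiers counted, in 2 mouse tumour cell lines. The genes were taken from a list of 44 names of ER folding, quality control and unfolded protein response genes, matched to Ensembl identifiers by current or older symbol. Selenos and Vimp on that list are names of 1 gene, and each of the other names matched 1 identifier. All 43 were kept whatever their level. Levels are given in CPM, read counts relative to the scaled total of the library. Of the members, 42 reached at least 1 CPM in each of the 48 libraries and 40 reached at least 10 CPM.

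Proteins of the secretory pathway are folded in the ER by chaperones such as BiP (Hspa5) and GRP94 (Hsp90b1), are given disulfide bonds by protein disulfide isomerases, and are sent back to the cytosol for degradation when folding fails. When unfolded protein accumulates, the sensors IRE1α (Ern1), PERK (Eif2ak3) and ATF6 (Atf6) raise the transcription of these genes, with Xbp1 as the transcription factor downstream of IRE1α, while PERK slows translation and induces Atf4 and its targets. Pancreatic beta cells carry a heavy load of proinsulin and are known for high chaperone levels and for their dependence on PERK and on the ER membrane protein wolframin (Wfs1).

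PolyA RNA was sequenced from βTC3, a mouse insulinoma line, and AJ-5257-1 (AJ), the other line of this study of pancreatic neuroendocrine tumours, in 16 groups of 3 libraries. All cells carried a doxycycline (dox)-inducible plasmid, either the empty vector PB-33, or ALK7-CA (a constitutively active form of the activin receptor ALK7), or, in AJ only, ALK7 without that change. In batch 1, each line was sampled as vector cells at 0, 2 and 24 h after dox (2 µg/ml) was added, and as ALK7-CA cells at the last 2 of these times. In batch 2, vector cells of each line without dox were left untreated or given activin B, a ligand of ALK7, at 50 ng/ml for 24 h, and AJ cells with ALK7 and 24 h of dox were left without ligand or given the same ligand. The cells were plated in triplicate wells, so that p-values measure the spread between wells of a group, which may be technical. ALK7-CA cells without dox were not analysed here. The active receptor and any other difference between ALK7-CA and vector cells therefore cannot be told apart. The receptor effect below is the difference between these cells at the same time of dox. The ALK7 cells without ligand differed from their vector control by both plasmid and dox, which cannot be told apart. In bulk RNA of this kind, fewer cells of a type and less RNA per cell cannot be told apart either.

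The libraries held from 17976628 to 38848102 counts (median 26060316). All 8 beta cell markers exceeded 1 CPM in βTC3, with a summed level between 16770 and 33171 CPM, and 7 of 8 did so in AJ, where the sum lay between 501 and 1705 CPM and the median Ins2 level of vector cells was 0.0891 CPM. All 5 neuroendocrine markers exceeded 1 CPM in both lines. Counts of Acvr1c, the gene of ALK7, had a median of 75.7 CPM in βTC3 ALK7-CA cells at 24 h of dox and 119 CPM in vector cells at that time, of 2.66 and 10.5 CPM in the same groups of AJ, and of 13.0 CPM in AJ cells with ALK7 against 9.95 CPM in their vector control, so they do not check the labels. Replicate 1 of the AJ ALK7-CA cells at 24 h of dox held 14 transcripts typical of βTC3 at a median 6.69% of their βTC3 level, while the other AJ libraries stayed under 0.3%. Results that rest on it are given with and without it. A gene rose or fell in a comparison when its adjusted p in the edgeR quasi-likelihood fit over all tested genes (Benjamini-Hochberg) was below 0.05, changes are log2 fold changes with the standard error (SE) of the fit, and n was 3 libraries per group.

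The sequences just upstream of the start of 5 members are shown, because unfolded protein response genes are known to carry ER stress elements there and because these 5 range from Hspa5, Pdia6 and Derl3, which passed in several comparisons, to Herpud1, which passed in AJ alone, and Canx, which passed in no treatment comparison without the replicate block. Each is the 250 bases before the RefSeq gene start in GRCm38.p6, written 5′ to 3′ on the gene's strand. Capitals mark the ER stress element (ERSE, the letters CCAAT and CCACG with any 9 bases between them, on either strand) or, in Herpud1, the second type of this element (ERSE-II, the letters ATTGG and CCACG with any 1 base between them). They are Hspa5 (chr2:34771840-34772089, plus strand), Pdia6 (chr12:17266339-17266588, plus strand), Derl3 (chr10:75893148-75893397, plus strand), Canx (chr11:50325674-50325923, minus strand) and Herpud1 (chr8:94386179-94386428, plus strand).
Hspa5: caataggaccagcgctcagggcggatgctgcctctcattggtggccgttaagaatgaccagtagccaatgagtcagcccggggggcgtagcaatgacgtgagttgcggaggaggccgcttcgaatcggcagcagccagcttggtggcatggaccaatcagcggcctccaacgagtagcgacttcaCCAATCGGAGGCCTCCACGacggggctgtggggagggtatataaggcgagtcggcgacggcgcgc
Pdia6: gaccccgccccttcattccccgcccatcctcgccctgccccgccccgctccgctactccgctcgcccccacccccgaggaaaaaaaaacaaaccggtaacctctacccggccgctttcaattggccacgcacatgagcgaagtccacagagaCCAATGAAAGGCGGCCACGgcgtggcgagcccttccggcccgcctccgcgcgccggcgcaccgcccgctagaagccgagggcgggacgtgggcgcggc
Derl3: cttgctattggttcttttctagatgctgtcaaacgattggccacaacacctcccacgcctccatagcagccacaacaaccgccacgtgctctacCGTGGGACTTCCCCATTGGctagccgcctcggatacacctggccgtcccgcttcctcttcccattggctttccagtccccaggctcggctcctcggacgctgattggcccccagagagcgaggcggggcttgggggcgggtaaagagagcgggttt
Canx: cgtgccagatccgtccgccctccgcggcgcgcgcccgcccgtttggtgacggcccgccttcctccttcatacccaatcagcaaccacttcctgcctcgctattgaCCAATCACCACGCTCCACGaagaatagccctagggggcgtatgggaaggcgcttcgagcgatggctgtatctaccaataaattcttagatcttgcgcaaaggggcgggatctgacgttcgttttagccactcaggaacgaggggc
Herpud1: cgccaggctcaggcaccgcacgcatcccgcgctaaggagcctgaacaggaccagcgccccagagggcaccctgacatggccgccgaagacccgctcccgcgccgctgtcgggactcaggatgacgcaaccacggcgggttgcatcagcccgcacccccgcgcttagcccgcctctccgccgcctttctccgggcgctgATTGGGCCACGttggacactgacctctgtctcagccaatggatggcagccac
The element began 65 bases upstream of the start in Hspa5, 98 in Pdia6, 145 in Canx and 52 in Herpud1. In Derl3 it lay on the opposite strand, from 156 bases upstream.

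Promoters of 32 members were in the RefSeq table. The ERSE letters occurred in 9 of them (28.1%), those of Hspa5, Hsp90b1, Calr, Canx, Pdia6, Dnajc3, Creld2, Syvn1 and Derl3, against 37 of all 32851 promoters of that length (0.113%). ERSE-II occurred in Herpud1 alone (3.12% of the members, 0.0304% of all promoters). The XBP1-type element TGACGTGG occurred in Txndc11 alone (3.12%, against 0.563% of all), and the C/EBP-ATF element TGATGNAAT in none (0 of 32, against 0.816% of all). Each was searched on both strands and no member held more than 1 kind. A match is a description of the letters in this window.

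In untreated cells the order of the genes differed between the lines. Per kilobase of exon, Calr, the lectin chaperone calreticulin, was the most abundant member in βTC3 of batch 1 at 576 ± 13.5 CPM per kb (SD, n = 3). It was followed by the protein disulfide isomerase P4hb at 334 ± 6.39, by Hsp90b1 at 304 ± 30.2, by the ER oxidase Ero1lb at 299 ± 27.7 and by Hspa5 at 258 ± 14.8 CPM per kb. P4hb, Hsp90b1 and Ero1lb lay within about 1 SD of each other. In AJ of the same batch Hsp90b1 led at 288 ± 18.5 CPM per kb, followed by Calr at 252 ± 4.76, Pdia3 at 204 ± 7.95 and P4hb at 199 ± 4.21, of which the last 2 did not differ beyond their spread. The lowest members were Stc2, which encodes the secreted glycoprotein stanniocalcin 2, at 0.154 ± 0.0443 CPM per kb in βTC3, and Wfs1 at 3.64 ± 0.269 CPM per kb in AJ.

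The lines differed most in Ero1lb and Stc2. Ero1lb (Ensembl ENSMUSG00000057069, chromosome 13 from 12565874 to 12611396), the pancreas-rich oxidase that recharges the disulfide isomerases, was counted at 1890, 1874 and 2200 CPM in untreated βTC3 of batch 1 and at 75.5, 72.7 and 83.0 CPM in AJ. In batch 2 it was at 1929, 2008 and 1871 CPM against 98.7, 96.4 and 98.1 CPM. Every βTC3 library was far above every AJ library, by 4.70 on the log2 scale in batch 1 (SE 0.101, adjusted p = 5.52e-08) and by 4.25 in batch 2 (SE 0.0487, adjusted p = 3.92e-10). Stc2 (ENSMUSG00000020303, chromosome 11 from 31357307 to 31370074), which PERK signalling is known to induce, went the other way, with at most 1.21 CPM in any βTC3 library and 39.9, 42.3 and 37.6 CPM in untreated AJ of batch 1. Its log2 difference was -5.62 in batch 1 (SE 0.178, adjusted p = 2.34e-07). In untreated βTC3 of batch 2 it was at 0.217, 0.272 and 0.194 CPM, near 0. It was kept for the batch 2 test by its AJ level alone, so no p-value is given there. The size of that difference (-7.32) rests on the low βTC3 level.

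More members were higher in βTC3 than in AJ in both batches. In batch 1, 28 were higher and 5 lower, where 72.1% of all genes tested passed (36.5% higher, 35.6% lower). In batch 2, 37 were higher and 2 lower, where 76.1% of all genes passed (37.6% higher, 38.5% lower). The 2 include Stc2, which was kept for that test by its AJ level alone. Of the 28 higher in batch 1, 26 were higher in batch 2 (92.9% of the 28 and 70.3% of the 37). The share of all genes passing in both comparisons is not given, here or for the overlaps below. The disulfide isomerase Pdia5 was higher by 1.86 and 2.30 on the log2 scale and Wfs1 by 1.74 and 2.48. For Pdia6, another disulfide isomerase, the difference was 1.28 in batch 1 and 2.33 in batch 2, and for Hspa5 it was 0.72 and 1.45. Among the 9 oxidoreductases, 8 were higher in βTC3 in each batch. The batches did not give the same picture for Derl3 and Hyou1. Derl3 (ENSMUSG00000009092, chromosome 10 from 75893413 to 75895941), a derlin that helps draw misfolded proteins out of the ER, was lower in βTC3 in batch 1 (log2 difference -1.20, SE 0.138, adjusted p = 0.000138) and did not pass in batch 2 (0.22, adjusted p = 0.0749). Hyou1, the exchange factor and large chaperone that works with BiP, was lower in batch 1 (log2 difference -0.60, SE 0.0739, adjusted p = 0.000199) and higher in batch 2 (0.49, SE 0.0815, adjusted p = 0.000642), so that the direction changed with the batch.

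**Figure D1:**
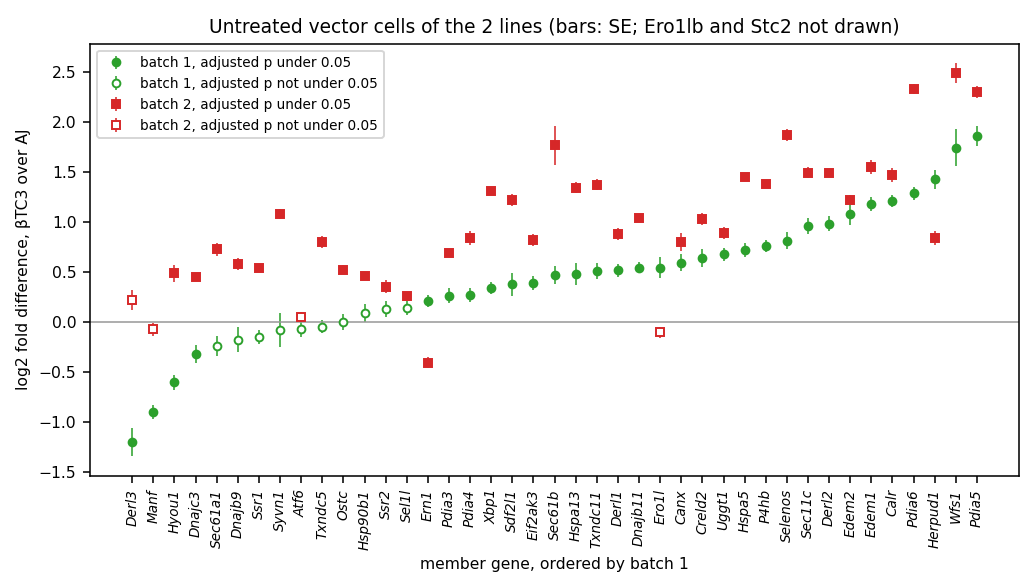
Difference in level between the lines for each member, βTC3 over AJ on the log2 scale (axis), in untreated cells of batch 1 and of batch 2, with Ero1lb and Stc2 left off for scale. In batch 2 the points lie further toward βTC3 for most members, and Hyou1 moves from -0.60 to 0.49.

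Untreated βTC3 cells themselves differed between the batches, which was tested after the values were seen. Between untreated vector cells of batch 2 and batch 1, 32 members were higher in batch 2, 2 were lower and 9 did not pass, with a median of 0.54 on the log2 scale, where 37.7% of all genes passed (16.7% higher, 21% lower). Derl3 was higher by 1.30, the ubiquitin ligase gene Syvn1 (Hrd1) by 1.14, Hyou1 by 1.06, Pdia6 by 0.89 and Hspa5 by 0.77. The insulin gene Ins2 was at 8438 ± 1868 CPM in batch 1 and 19316 ± 897 CPM in batch 2 (SD, n = 3). In AJ 8 members were higher, 8 were lower and 27 did not pass, where 38.3% of all genes passed (19.1% higher, 19.3% lower), and Hspa5 did not pass (0.05, adjusted p = 0.391). Every treatment comparison below was therefore made within a line and a batch.

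In βTC3 vector cells much of the group differed between 24 h and 0 h of dox. In βTC3, 26 of 43 members rose and 1 fell, while 16 did not pass. The median change was 0.31, where 23.3% of all genes passed (10.6% rose, 12.7% fell) around a median of 0. For 28 members every dox library was above every control library and for 1 below, against 17.3% and 18.1% of all genes. Of the 9 oxidoreductases 7 rose, of the 13 chaperones and co-chaperones 8, of the 9 genes of ER-associated degradation 5, and of the 6 genes for entry into the ER 5. Pdia6 (ENSMUSG00000020571, chromosome 12 from 17266545 to 17284770) was counted at 556, 606 and 553 CPM without dox and at 799, 805 and 856 CPM after 24 h. The 24 h libraries were all higher, with a log2 change of 0.52 (SE 0.061, adjusted p = 7.31e-05).

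Other members of the response moved with it. Hyou1 was at 290, 294 and 259 CPM without dox and at 400, 404 and 404 CPM after 24 h, without overlap (0.52, SE 0.059, adjusted p = 5.81e-05). The lumenal co-chaperone Sdf2l1 was at 70.1, 73.6 and 57.3 CPM and then at 100, 99.0 and 87.7 CPM (0.51, SE 0.105, adjusted p = 0.00361). Hspa5 (ENSMUSG00000026864, chromosome 2 from 34771970 to 34777547) was at 1025, 1101 and 1149 CPM and then at 1312, 1280 and 1401 CPM, again without overlap (0.28, SE 0.0602, adjusted p = 0.00448). The largest of the rises was that of Syvn1, whose product ubiquitinates misfolded ER proteins, by 0.77 (SE 0.186, adjusted p = 0.00964), and Xbp1 rose by 0.37 (SE 0.073, adjusted p = 0.00261). Herpud1, a membrane protein of the same degradation pathway that is often used as a stress marker, did not pass (-0.01, adjusted p = 0.939), nor did Eif2ak3 (0.05, adjusted p = 0.622), Canx (0.02) or Hsp90b1 (0.17, adjusted p = 0.19). With the replicate number as a block, which is apt in βTC3 because same-numbered libraries deviated together, Hsp90b1 passed (adjusted p = 0.00334). Ero1lb fell by 0.44 on the log2 scale (SE 0.0822, adjusted p = 0.00208), from 1890, 1874 and 2200 CPM to 1428, 1409 and 1581 CPM. Whether the wells at 0 h and 24 h were harvested together was not given in the labels, so time in culture and dox cannot be told apart.

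At 2 h of dox, 0 of 43 members passed in either line by edgeR and 0 by DESeq2, where 0.00633% of all genes passed in βTC3 and 0% in AJ. At an unadjusted p below 0.05 there was 1 member in βTC3, the sensor gene Ern1 (unadjusted p = 0.00201), and 0 in AJ. In AJ after 24 h of dox, 2 members rose and 0 fell, where 2.71% of all genes passed (1.43% rose, 1.27% fell). They were the disulfide isomerase Pdia4 (0.32, SE 0.0645, adjusted p = 0.0199) and Derl3 (0.47, SE 0.106, adjusted p = 0.0368). Derl3 was at 9.72, 9.31 and 8.57 CPM without dox and at 12.8, 13.0 and 12.3 CPM after 24 h, without overlap. Hspa5 in AJ was at 674, 632 and 694 CPM and then at 665, 722 and 739 CPM, which overlapped. More members passed in AJ with the replicate block, for which the count is given further below. The AJ count without the block rested on single libraries. It was 0 without vector replicate 2 at 24 h or without vector replicate 1, 2 or 3 at 0 h, 1 without vector replicate 1 at 24 h, and 5 without vector replicate 3 at 24 h.

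The change between 0 h and 24 h of dox differed between the lines by a test of the difference for 11 members, where 10.4% of all genes passed (5% higher, 5.4% lower). With the replicate block the count was 20, and no share of all genes is given for that fit. In 10 of the 11 the βTC3 change was the higher one. Examples are Hyou1 (0.54, SE 0.0813, adjusted p = 0.00232) and Selenos, a selenoprotein of the degradation complex (0.56, SE 0.0999, adjusted p = 0.00548). For Ero1lb it was the lower one (-0.55, SE 0.113, adjusted p = 0.0117). The count fell to 7 without βTC3 vector replicate 1 at 24 h or without AJ vector replicate 2 at 0 h.

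**Figure D2:**
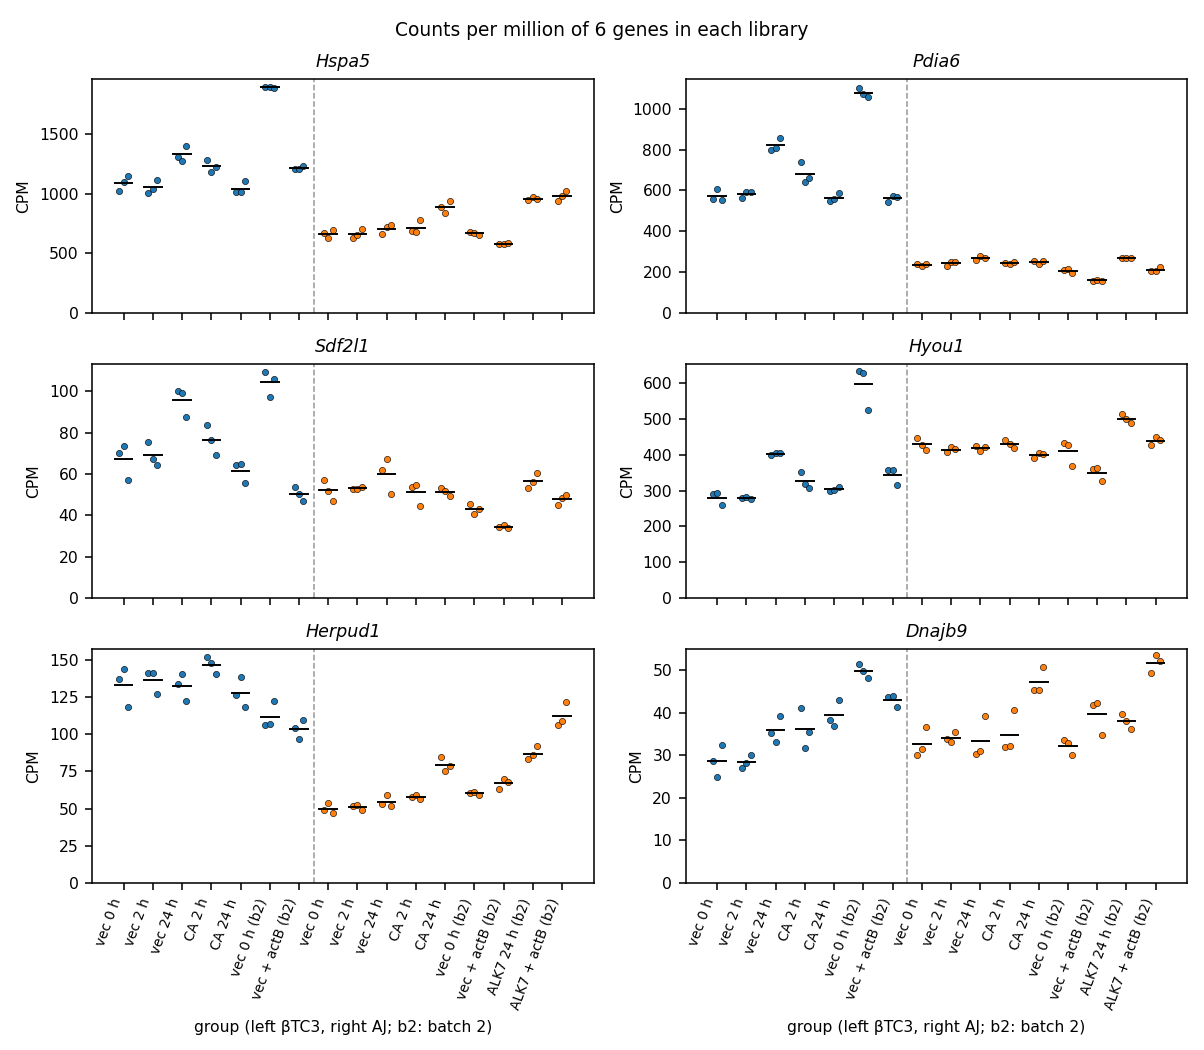
Levels in CPM (vertical axis) of Hspa5, Pdia6, Sdf2l1, Hyou1, Herpud1 and Dnajb9 in each of the 48 libraries (points), by group (horizontal axis, βTC3 at the left and AJ at the right). In βTC3 the first 4 are higher at 24 h of dox than at 0 h in vector cells and lower with activin B, and in AJ Herpud1 is highest with ALK7 and activin B, at 106 to 121 CPM.

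With the active receptor in βTC3 for 24 h, most of what moved was lower than in vector cells at the same time of dox. The adjusted p was passed downward by 19 members and upward by 1, while 23 did not pass. The median change was -0.21, where 13.5% of all genes passed (8.02% rose, 5.48% fell). With the replicate block 31 fell and 2 rose, with no share of all genes given for that fit. Of the oxidoreductases 7 of 9 fell, of the chaperones and co-chaperones 7 of 13, of the degradation genes 3 of 9 and of the entry genes 2 of 6. Hspa5 was counted at 1016, 1013 and 1104 CPM with ALK7-CA, below each of the vector libraries at 24 h (-0.35, SE 0.0602, adjusted p = 0.00135). Pdia6 was at 548, 559 and 585 CPM, also below all of them. Eif2ak3 (ENSMUSG00000031668, chromosome 6 from 70844515 to 70905245), the gene of PERK, was the 1 member that rose, from 67.2, 67.0 and 68.5 CPM to 78.5, 81.7 and 83.8 CPM (0.27, SE 0.0596, adjusted p = 0.00674).

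The vector group at 24 h of dox enters both this comparison and that of vector cells over time, so the levels are also given against vector cells without dox. Against those, 8 members were higher and 2 lower with ALK7-CA at 24 h, where 32.6% of all genes passed (16.5% higher, 16.1% lower). With the replicate block 19 were higher and 7 lower, and the share of all genes is not given for that fit. Hspa5 (-0.06, adjusted p = 0.477) and Pdia6 (-0.02, adjusted p = 0.861) did not pass. Syvn1 (0.53, adjusted p = 0.0428), Derl3 (0.46, adjusted p = 0.039) and Eif2ak3 (0.32, adjusted p = 0.00116) were higher. Ero1lb was lower by 0.79 on the log2 scale (SE 0.0826, adjusted p = 9.86e-06), at 1109, 1088 and 1255 CPM. It was thus lower at 24 h of dox in vector cells and lower again with ALK7-CA against those cells (-0.35, SE 0.0822, adjusted p = 0.0104). The count of 10 was 6 without ALK7-CA replicate 1 at 24 h or without vector replicate 1 at 0 h.

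At 2 h the picture in βTC3 was small. With ALK7-CA 3 members rose and 0 fell against vector cells at 2 h, where 1.53% of all genes passed (1.25% rose, 0.272% fell). With the replicate block 19 rose and 0 fell, a count that has no share of all genes beside it. The 3 without the block were Ern1 (0.30, SE 0.0495, adjusted p = 0.00848), P4hb (0.22, SE 0.0483, adjusted p = 0.0355) and the thioredoxin-domain gene Txndc11 (0.27, SE 0.0595, adjusted p = 0.0429). Ern1 was at 127, 113 and 122 CPM in vector cells and at 155, 146 and 147 CPM with ALK7-CA, without overlap. The count was 0 without vector replicate 2 or ALK7-CA replicate 1 at 2 h, 1 without ALK7-CA replicate 2 and 5 without ALK7-CA replicate 3. Between the times the receptor effect was lower at 24 h than at 2 h for 17 members and higher for 0, where 5.85% of all genes passed (3.68% higher, 2.17% lower). With the block, for which no share of all genes is given, it was lower for 34. Pdia6 had the smallest adjusted p of the 17 (-0.76, adjusted p = 0.000111), and the others included Sdf2l1 (-0.77), Hyou1 (-0.63) and Hspa5 (-0.56, adjusted p = 0.00108). The 17 became 11 without vector replicate 1 at 24 h, without ALK7-CA replicate 1 at 2 h or without ALK7-CA replicate 1 at 24 h.

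In βTC3 vector cells 34 of 42 tested members fell after 24 h of ligand and 1 rose, while 7 did not pass. The median change was -0.35, where 22.2% of all genes passed (12.3% rose, 9.97% fell). Stc2 was too low to be tested. For 36 members every ligand library was below every control library and for 1 above, against 18.4% and 19.8% of all genes. Among the chaperones and co-chaperones 12 of 13 fell, among the oxidoreductases 8 of 9, among the degradation genes 7 of 9 and among the entry genes 5 of 6. Hspa5 was counted at 1893, 1899 and 1888 CPM without ligand and at 1212, 1205 and 1232 CPM with it (-0.63, SE 0.0327, adjusted p = 9.07e-06). Pdia6 was at 1099, 1070 and 1057 CPM and then at 544, 573 and 570 CPM (-0.93, SE 0.0371, adjusted p = 2.57e-06). Both groups of both genes were far apart for their spread.

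Derl3 and Sdf2l1 changed most. Derl3 went from 10.4, 10.1 and 9.48 CPM to 5.06, 4.44 and 4.24 CPM (-1.12, SE 0.101, adjusted p = 0.000169). Sdf2l1 (ENSMUSG00000022769, chromosome 16 from 17130138 to 17132383) went from 109, 97.4 and 106 CPM to 53.6, 50.4 and 47.0 CPM (-1.05, SE 0.063, adjusted p = 2.01e-05). Neither gene's groups overlapped. Hyou1 (-0.79), the secreted ER protein gene Manf (-0.69), the ER stress-inducible gene Creld2 (-0.65), Ero1lb (-0.61) and Calr (-0.58) also fell. Of the sensors, Atf6 (-0.22, adjusted p = 0.00901) and Xbp1 (-0.20, adjusted p = 0.00678) fell, Ern1 did not pass (-0.07), and Eif2ak3 rose from 84.6, 79.9 and 76.0 CPM to 87.1, 97.1 and 88.7 CPM (0.19, SE 0.0537, adjusted p = 0.0417). Herpud1 (-0.11, adjusted p = 0.359), Canx (-0.24, adjusted p = 0.0511), Derl1, Sec61b, Ero1l and Wfs1 did not pass. With the replicate block Canx (adjusted p = 0.000193), Derl1 (adjusted p = 0.0246) and Sec61b (adjusted p = 0.0143) passed. Members with an ERSE in the window had a median change of -0.58 (8 of 9 fell) and those with a promoter but no ERSE one of -0.31 (17 of 22 fell). The same medians were 0.28 and 0.315 for 24 h of dox in βTC3 and -0.23 and -0.19 for ALK7-CA at 24 h, and none of these differences was tested. In the same cells Ins2 was at 19316 ± 897 CPM without ligand and 13784 ± 578 CPM with it (SD, n = 3), and its part in the result was not tested.

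The receptor and ligand comparisons in βTC3 share no library. All 19 members that fell with ALK7-CA at 24 h also fell with activin B, which is 100% of the 19 and 55.9% of the 34, and Eif2ak3 rose in both. As 34 of the 42 members tested fell with activin B, a large overlap follows from that share. The 19 fell against vector cells at 24 h of dox. Of them, only Ero1lb also passed as lower against vector cells without dox, without the replicate block.

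**Figure D3:**
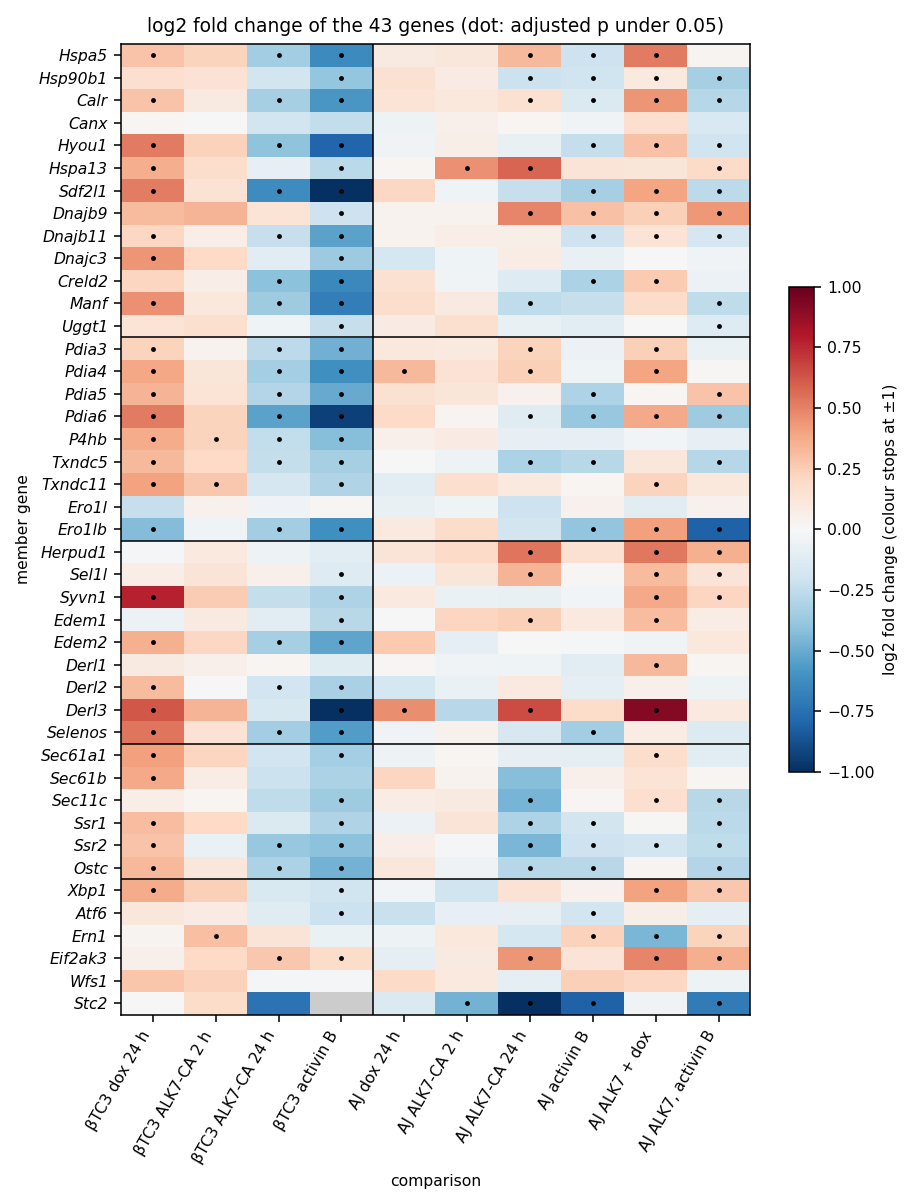
Log2 change of each member (rows, grouped by role) in the 10 treatment comparisons (columns), with grey where a gene was not tested. The βTC3 activin B column is negative for most rows, the βTC3 dox 24 h column positive, and Eif2ak3 is positive in the 5 comparisons where it passed.

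In AJ with the active receptor, members passed in both directions, as did all genes. At 24 h of dox, 11 members rose and 9 fell with ALK7-CA against vector cells, and 23 did not pass, where 40.7% of all genes passed (20.8% rose, 19.9% fell), so that the share of members was close to that of all genes. Without the library holding βTC3 transcripts, 10 rose and 9 fell. Counts by role were unequal. Of the 9 degradation genes 4 rose and 0 fell, and of the 6 entry genes 0 rose and 4 fell. Without that library 3 degradation genes rose and 5 entry genes fell. Herpud1 (ENSMUSG00000031770, chromosome 8 from 94386438 to 94395377) was at 53.1, 58.8 and 51.7 CPM in vector cells and at 84.8, 75.4 and 78.4 CPM with ALK7-CA, without overlap (0.53, SE 0.0698, adjusted p = 3.47e-05, and 0.50 without the library). Derl3 was at 12.8, 13.0 and 12.3 CPM and then at 20.3, 19.4 and 20.6 CPM, also apart (0.65, SE 0.104, adjusted p = 0.000204, and 0.66 without the library).

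Hspa5 rose as well, from 665, 722 and 739 CPM to 887, 842 and 943 CPM (0.32, SE 0.0657, adjusted p = 0.00143, and 0.33 without the library). So did Eif2ak3 (0.44, adjusted p = 5.48e-05), the BiP-dependent co-chaperone gene Dnajb9 (0.49, adjusted p = 0.00309), Hspa13 (0.59, adjusted p = 0.000768) and Sel1l, the partner of Hrd1 (0.34, adjusted p = 0.000157). Members that fell included Ssr2, a subunit of the translocon-associated complex (-0.46, adjusted p = 3.34e-06), and Sec11c, a signal peptidase subunit (-0.47, adjusted p = 0.000168). The exons of Ssr2 overlap those of Gm10704 over 12.8% of their length. Stc2 had the largest change. It was at 36.5, 37.7 and 33.6 CPM in vector cells and at 11.6, 11.2 and 11.1 CPM with ALK7-CA, with all receptor libraries lower (-1.68, SE 0.0991, adjusted p = 1.73e-08, and -1.69 without the library). Ero1lb did not pass with all libraries (-0.19, adjusted p = 0.519), at 112, 49.3 and 58.3 CPM with ALK7-CA, of which the first is the library holding βTC3 transcripts, and was lower without it (-0.62, SE 0.0845, adjusted p = 9.57e-05). Hsp90b1 (-0.22, adjusted p = 0.147 without the library), Pdia6 (-0.12, adjusted p = 0.0948 without it) and the mannosidase-like gene Edem1 (0.24, adjusted p = 0.0722 without it) passed only with that library in the fit, and Sec61b passed only without it.

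Against AJ vector cells without dox, 12 members were higher and 9 lower with ALK7-CA at 24 h, where 43.3% of all genes passed (22.2% higher, 21% lower), and 10 and 9 without that library. At 2 h Hspa13 rose (0.46, SE 0.11, adjusted p = 0.0116) and Stc2 fell (-0.47, SE 0.0948, adjusted p = 0.00386), from 36.4, 42.7 and 33.8 CPM to 27.3, 29.2 and 24.5 CPM, where 15.8% of all genes passed (8.24% rose, 7.54% fell). The count of 2 was 1 without vector replicate 2 at 2 h, and it was higher with the replicate block, as given below. The receptor effect differed between 2 and 24 h for 10 members, 4 higher and 6 lower at 24 h, where 21% of all genes passed (10.8% higher, 10.2% lower), and for 9 (2 and 7) without the library. The effect on Stc2 was lower at 24 h (-1.21, SE 0.136, adjusted p = 2.78e-05), and that on Derl3 was higher (0.93, adjusted p = 0.000515).

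With activin B in AJ vector cells, 17 members fell and 2 rose, while 24 did not pass. The median change was -0.09, where 22.5% of all genes passed (11.6% rose, 10.9% fell). Stc2 fell from 40.1, 36.7 and 30.8 CPM to 21.1, 21.3 and 19.2 CPM (-0.81, SE 0.0753, adjusted p = 1.09e-05). Pdia6 fell from 211, 214 and 194 CPM to 158, 163 and 159 CPM (-0.38, SE 0.0386, adjusted p = 2.33e-05). Hspa5 fell from 681, 670 and 654 CPM to 581, 580 and 586 CPM (-0.21, SE 0.0327, adjusted p = 0.00066). None of the 3 overlapped. Dnajb9 (0.29, SE 0.0637, adjusted p = 0.0061) and Ern1 (0.23, SE 0.0511, adjusted p = 0.00642) rose. For Ern1 the libraries overlapped, at 192, 176 and 167 CPM without and 225, 217 and 189 CPM with ligand. Of the 34 members that fell in βTC3, 16 fell in AJ too (47.1% of the 34 and 94.1% of the 17), and Dnajb9 passed in opposite directions.

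In the test of the difference between the lines, the ligand effect was lower in βTC3 for 25 members and higher for 0, where 9.12% of all genes passed (4.51% higher, 4.61% lower). The difference was -1.31 for Derl3 (SE 0.146, adjusted p = 0.000131), -0.72 for Sdf2l1, -0.56 for Pdia6 and -0.43 for Hspa5 (SE 0.0483, adjusted p = 0.000131). For the receptor effect at 24 h, 14 members were lower in βTC3 and 1 was higher, where 17.5% of all genes passed (9.18% higher, 8.32% lower). It was -0.81 for Derl3 (SE 0.111, adjusted p = 0.000424), -0.66 for Hspa5 (SE 0.0916, adjusted p = 0.000469) and -0.58 for Herpud1. The member on the other side was Stc2 (0.94, adjusted p = 0.0248), which in βTC3 lies near 0. Without the AJ library holding βTC3 transcripts the 15 became 11, and they became 9 without βTC3 vector replicate 3 or ALK7-CA replicate 1 at 24 h. Hspa5, Calr, Pdia3 and Pdia4 passed in both lines in opposite directions, lower with ALK7-CA in βTC3 and higher in AJ. These directions are against vector cells at 24 h of dox. Against vector cells without dox the βTC3 changes were -0.06, -0.05, -0.04 and 0.05, and none passed. In AJ they were 0.41, 0.29, 0.33 and 0.56, and all passed. How far the vector cells at 24 h of dox enter the difference between the lines was not tested.

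AJ cells with ALK7 and dox had higher levels than vector cells without dox. 23 members were higher, 2 lower and 18 did not pass, with a median of 0.18, where 29% of all genes passed (14.5% higher, 14.6% lower). For 25 members every ALK7 library was above every vector library and for 2 below, against 19.8% and 20.4% of all genes. Hspa5 was at 945, 971 and 953 CPM, above all 3 vector libraries (0.52, SE 0.0327, adjusted p = 3.74e-07). Derl3 was at 15.1, 17.1 and 14.6 CPM against 8.83, 8.40 and 7.59 CPM (0.91, SE 0.0859, adjusted p = 9.01e-06). Both were apart. Herpud1 (0.53), Eif2ak3 (0.49), Calr (0.44), Ero1lb (0.41), Xbp1 (0.40) and Pdia6 (0.38) were higher too. Ern1 was lower, at 135, 129 and 125 CPM (-0.45, SE 0.0516, adjusted p = 4.27e-05), as was Ssr2 (-0.19, adjusted p = 0.0158). Stc2 did not pass (-0.03, adjusted p = 0.804). In AJ vector cells of batch 1, 2 members were higher at 24 h of dox than at 0 h, in another batch. That count lay between 0 and 5 when single libraries were left out, and was higher with the replicate block.

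When ligand was added to these ALK7 cells, 15 members fell, 9 rose and 19 did not pass, where 32.8% of all genes passed (16.5% rose, 16.3% fell). Ero1lb fell from 128, 128 and 132 CPM to 72.3, 77.3 and 74.0 CPM, without overlap (-0.81, SE 0.0417, adjusted p = 4.02e-08). Hsp90b1 (-0.33), Pdia6 (-0.36), Calr (-0.29) and Stc2 (-0.70, adjusted p = 2.09e-05) fell. Herpud1 rose from 83.1, 85.8 and 91.7 CPM to 106, 109 and 121 CPM (0.36, SE 0.0572, adjusted p = 0.000478), and Dnajb9 (0.43), Eif2ak3 (0.36) and Xbp1 (0.27) rose. Hspa5 overlapped, at 941, 986 and 1020 CPM with ligand, and did not pass (0.03, adjusted p = 0.589). Of the 9 degradation genes 3 rose and 0 fell, and of the 13 chaperones and co-chaperones 2 rose and 7 fell, the others not passing. The 2 AJ comparisons of ALK7-CA at 24 h and of ligand on ALK7 cells share no library. All 9 members that fell in the first fell in the second (100% of the 9 and 60% of the 15), and 5 rose in both, which were Dnajb9, Herpud1, Sel1l, Eif2ak3 and Hspa13 (45.5% of the 11 and 55.6% of the 9). Without the library holding βTC3 transcripts, 8 of the 9 that fell in the first fell in the second (88.9%, and 53.3% of the 15), Sec61b being the exception, and the same 5 rose in both.

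The ligand effect itself differed between ALK7 and vector cells for 4 members, where 2.56% of all genes passed (1.15% higher, 1.41% lower). It was lower with ALK7 for Ero1lb (-0.41, SE 0.0589, adjusted p = 0.00258) and higher for Pdia5 (0.59, SE 0.109, adjusted p = 0.0127), Hspa5 (0.23, SE 0.0461, adjusted p = 0.0196) and Xbp1 (0.23, SE 0.0499, adjusted p = 0.0354). The count was 2 without any 1 of 9 of the 12 libraries, which were vector replicates 1 and 2, vector replicates 1 and 2 with ligand, ALK7 replicates 1, 2 and 3, and ALK7 replicates 2 and 3 with ligand.

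**Figure D4:**
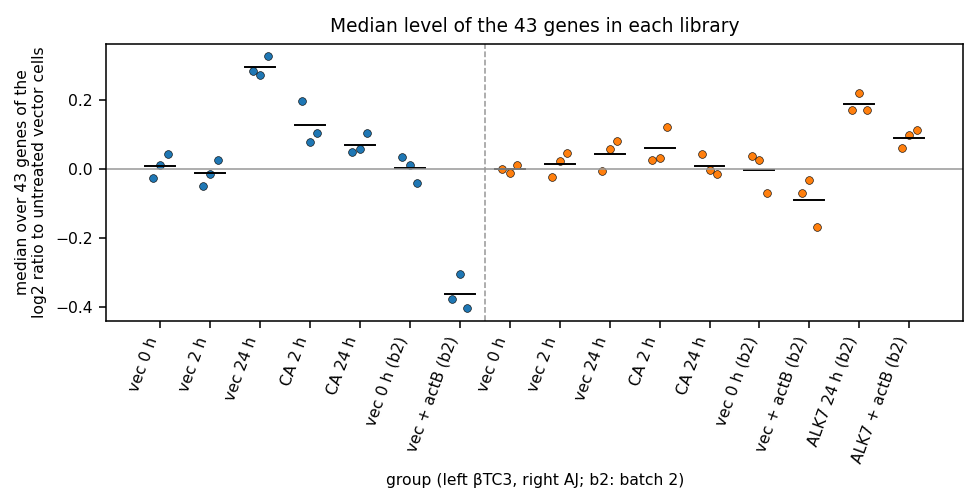
Median over the 43 members of the log2 difference between each library (points) and the mean of the untreated vector cells of its line and batch (vertical axis), by group (horizontal axis). βTC3 vector libraries at 24 h of dox lie between 0.27 and 0.33, βTC3 libraries with activin B between -0.40 and -0.31, and AJ libraries with ALK7 between 0.17 and 0.22.

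Across the 10 treatment comparisons, Calr, Pdia6 and Ssr2 passed most often, in 7 each. Without the library holding βTC3 transcripts Pdia6 passed in 6 and Ero1lb in 7. Eif2ak3 rose in 5 and fell in 0, Herpud1 rose in 3 and fell in 0, and Stc2 fell in 4. Some of these comparisons share control libraries, so the counts are not independent. Canx, the membrane-bound lectin chaperone calnexin, Ero1l, the oxidase of wide tissue range, and Wfs1 passed in 0 of the 10 without the replicate block. With it, in βTC3, Canx was lower with ALK7-CA at 24 h (-0.19, adjusted p = 0.000363) as well as with activin B, and after 24 h of dox Ero1l was lower (-0.23, adjusted p = 0.000155) and Wfs1 higher (0.30, adjusted p = 0.0024). Canx, Hspa5 and Pdia6 carry an ERSE in the sequences shown above. Ero1l and Ero1lb encode oxidases of the same kind. Ero1l stayed between 52.3 and 108 CPM in all libraries, while Ero1lb lay between 1088 and 2200 CPM in βTC3 and between 49.3 and 132 CPM in AJ. The remaining members followed the counts of their groups. In βTC3 the co-chaperone gene Dnajc3 rose with 24 h of dox (0.44, adjusted p = 0.00348) and fell with activin B (-0.36, adjusted p = 0.00129). With ALK7-CA at 24 h it passed only under the block (-0.11, adjusted p = 0.0349). Another co-chaperone gene, Dnajb11, changed by 0.21 with 24 h of dox, by -0.23 with ALK7-CA at 24 h and by -0.54 with activin B in βTC3, passing each time. The glucosyltransferase gene Uggt1, which marks unfinished glycoproteins for refolding, fell with activin B in AJ cells with ALK7. Of these 3 βTC3 comparisons it passed in the last alone (-0.23) without the replicate block and also with dox with it (adjusted p = 0.00509). The disulfide isomerase gene Txndc5 changed by 0.32, -0.24 and -0.34 in the same 3 βTC3 comparisons. The degradation genes Edem2 and Derl2 changed there by 0.36, -0.33 and -0.53 and by 0.32, -0.19 and -0.33, all passing. Of the entry genes, Sec61a1, the pore of the translocon, passed with dox (0.41) and activin B (-0.34), as did Ssr1 (0.31 and -0.30), both also passing with ALK7-CA under the block (adjusted p = 0.0098 and 0.00349), and Ostc passed in all 3 (0.32, -0.32 and -0.47). In AJ with ALK7-CA at 24 h Txndc5 (-0.32), Ssr1 (-0.31) and Ostc (-0.28) fell and the others of these remaining members did not pass.

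**Figure D5:**
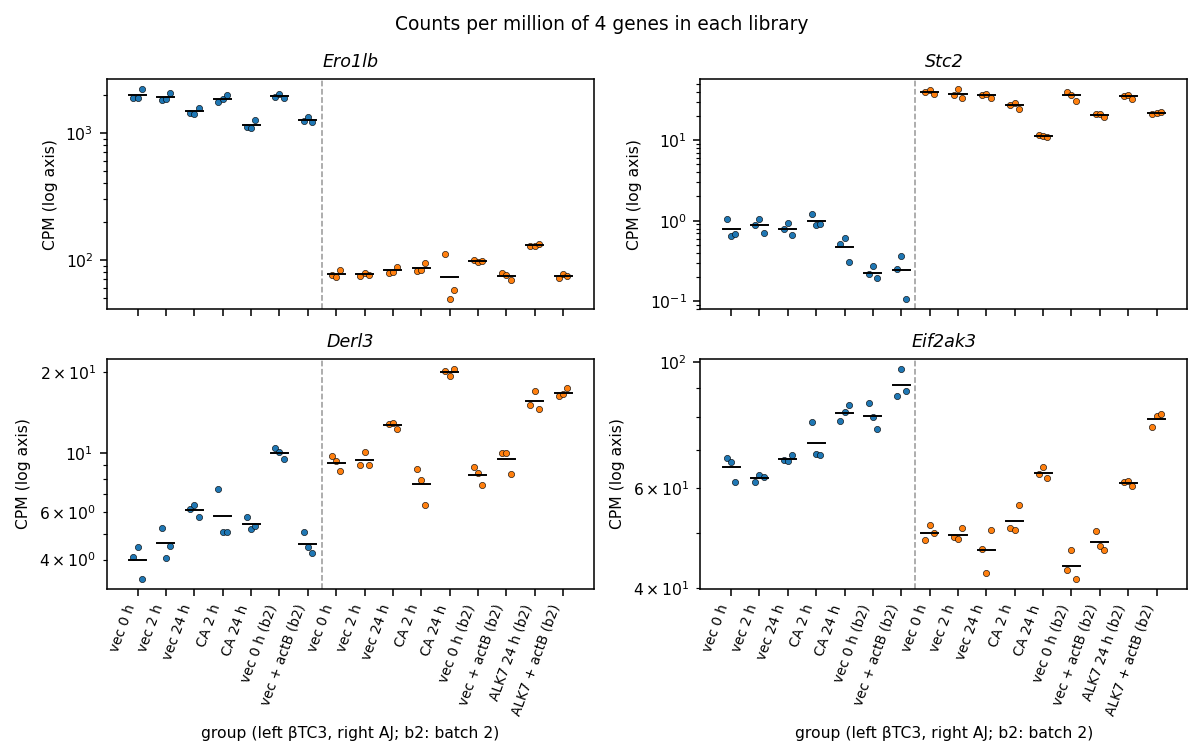
Levels in CPM (vertical axis, log scale) of Ero1lb, Stc2, Derl3 and Eif2ak3 in each of the 48 libraries (points), by group (horizontal axis, βTC3 at the left and AJ at the right). Stc2 is lowest among AJ groups with ALK7-CA at 24 h (11.1 to 11.6 CPM), and the AJ ALK7-CA 24 h point of Ero1lb at 112 CPM is the library holding βTC3 transcripts.

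Genes of the pathway outside the group were read from other lists. In βTC3 vector cells at 24 h of dox, 0 of 21 genes rose and 5 of the PERK and ATF4 arm fell, where 10.6% of all genes rose and 12.7% fell. Ddit3, the gene of the stress factor CHOP, was at 97.7, 109 and 76.1 CPM at 0 h of dox in batch 1 and at 30.5, 30.7 and 27.5 CPM after 24 h, without overlap (-1.67, SE 0.135, adjusted p = 5.03e-06). At 2 h of dox it was at 99.5, 108 and 85.5 CPM. Atf3 (-1.29, adjusted p = 3.73e-06) and the pseudokinase gene Trib3 (-0.95, adjusted p = 0.00285) fell as well. Untreated βTC3 of batch 2, also without dox, lay below the batch 1 libraries at 24 h of dox for these genes. There Ddit3 was at most 24.6 CPM, Atf3 at most 4.3 CPM and Trib3 at most 15.8 CPM. The high levels at 0 h were thus those of batch 1 alone, and their part in the falls was not tested. In AJ with ALK7 and dox against vector cells 14 of the 21 were higher and 1 lower, where 14.5% of all genes were higher and 14.6% lower. There Ddit3 was at 33.1, 32.5 and 35.6 CPM, against a mean of 17.2 ± 1.93 CPM (SD, n = 3) in vector cells (0.97, SE 0.0897, adjusted p = 7.97e-06), and Trib3 was higher by 1.04 on the log2 scale.

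The list of 26 further genes of the translocon, signal peptidase and oligosaccharyltransferase had 9 risen and 0 fallen in βTC3 with dox at 24 h, 0 and 6 with ALK7-CA at 24 h, and 0 and 17 with activin B. Rpn1, an oligosaccharyltransferase subunit, changed by 0.29, -0.27 and -0.48 in these. Of all genes 10.6% rose and 12.7% fell with dox, 8.02% and 5.48% did so with ALK7-CA, and 12.3% and 9.97% with activin B. Of 27 other ER chaperones and folding enzymes 4 rose and 0 fell with dox, 1 and 2 did so with ALK7-CA, and 1 and 15 with activin B. The prolyl isomerase gene Fkbp11 changed by 0.75, -0.65 and -1.09. The first 2 of these 3 comparisons share the vector group at 24 h of dox. In AJ, Fkbp11 was higher with ALK7 and dox (0.71, SE 0.11, adjusted p = 0.000454), and Bhlha15, a transcription factor of secretory cells downstream of XBP1, was higher there too (0.81).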

How the data were processed

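PolyA RNA was measured in 48 libraries of 16 groups, each of 3 wells. Per the labels' protocols, RNA was extracted with Trizol and stranded mRNA libraries were made from it. The submitters' processing notes name the mouse build mm10 and the tools featureCounts 1.4.4, HISAT2, cutadapt 1.4.2, edgeR and bcl2fastq 2.17. The sources used here do not give the strand setting, the annotation release or the HISAT2 and edgeR versions, so reads of genes overlapping on opposite strands may not be told apart. The values analysed were whole read counts per Ensembl gene, as deposited by the authors without normalization. A deposited table of normalized values was not used here.

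From these counts, edgeR 4.0.16 (R 4.3.3, limma 3.58.1) gave TMM-scaled CPM over the 48 libraries and the quasi-likelihood F test in 22 comparisons. Genes were kept by filterByExpr (minimum count 10, minimum total 15, proportion 0.7), and p-values were adjusted by Benjamini-Hochberg over all genes kept, called below 0.05. Each fit took the libraries of 1 line in 1 batch, with the differences between lines fitted over both. The SE is the size of the log2 change over the square root of F. Symbols came from GENCODE M21 (37693 identifiers named, 1324 not). The fits were tried on counts with known changes, simulated from the βTC3 libraries of batch 1, for ALK7-CA at 24 h alone. These counts held no effect shared by same-numbered replicates, so they do not check how pairing was handled. The other comparisons were not simulated.

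Members and lists were chosen with earlier results of these data known. Every member was accounted for. Values per library were given for a named set (Hspa5, Hsp90b1, Calr, Canx, Pdia3, Pdia6, Hyou1, Sdf2l1, Dnajb9, Herpud1, Derl3, Xbp1, Atf6, Ern1, Eif2ak3, Ero1l, Ero1lb, Stc2 and Wfs1) where a result turned on them and for up to 8 members with the smallest adjusted p per comparison. Up to 3 genes of each other list were named per comparison.

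Same-numbered βTC3 replicates deviated together over 8842 genes, in 10 of 10 pairs of groups in batch 1 (every correlation from 0.150 to 0.813) and in 1 of 1 pair in batch 2 (0.106 to 0.418), so they were taken as paired. In AJ 5 of 10 and 1 of 6 pairs met this, and the numbers were not taken to pair the line as a whole. The 5 included vector cells at 0 and 24 h of dox, and vector and ALK7-CA cells at 2 h. Alternatives were RLE scaling, DESeq2 1.42.0, no filter on low counts, the replicate block and leaving out each library. The comparison of batches and the fits without the library holding βTC3 transcripts were added after the data were seen.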

Additional observations from a re-analysis of the deposited data

Results flagged for a closer look

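Tests of the difference between effects were past the threshold for several members. The effect of ALK7-CA differed between 24 h and 2 h for 17 members in βTC3, where 5.85% of all genes passed. In AJ it did so for 10, or 23.3% of members, which was close to the 21% of all genes. The effect of activin B in AJ differed between ALK7 and vector cells for 4, where 2.56% of all genes passed. Between the lines, the effect of 24 h of dox differed for 11, where 10.4% of all genes passed. That of ALK7-CA at 24 h differed for 15 (17.5% of all genes) and that of activin B for 25 (9.12% of all genes). In the last, Derl3 fell by 1.12 on the log2 scale in βTC3 and did not pass in AJ (0.18), and Dnajb9 fell in βTC3 (-0.21) and rose in AJ (0.29).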

How the results depend on the processing

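Of 362 single-gene calls over the 22 comparisons, DESeq2 kept 357, RLE scaling 355 and the fit without a filter on low counts 325, and none of the refits reversed a direction. Leaving out libraries kept 2270 of 2664 calls. Counts of members passing (22 comparisons) moved by over 1.5 times as follows, and the cause was not tested. With DESeq2, ALK7-CA at 2 h in βTC3 gave 7 and dox at 24 h in AJ 5. Without the filter these gave 1 each, ALK7-CA at 24 h against vector cells without dox in βTC3 gave 6, and the ligand difference between AJ ALK7 and vector cells gave 2. With the replicate block, which kept 289 of 290 calls and added 140, ALK7-CA in βTC3 gave 19 at 2 h, 33 at 24 h, 26 at 24 h against no dox and 34 for the difference between times. Dox at 24 h in βTC3 gave 34 and activin B 38. Shares of all genes given above are those of the fits without the block, so they are not the background of these counts. In AJ, where the numbers were not taken to pair the line as a whole, the block gave 8 for dox at 24 h, 11 for ALK7-CA at 2 h, and 17 for the difference between times. The 2 groups compared did deviate together for dox at 24 h (correlations 0.399, 0.377 and 0.716). So did those for ALK7-CA at 2 h (0.243, 0.521 and 0.591). The block was fitted over all AJ libraries of batch 1, however, among them groups that did not deviate together. Neither these 2 counts nor those without the block are therefore preferred. For the dox difference between the lines, which holds libraries of both, it gave 20. The block was not fitted to the line differences at baseline.

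Leaving out 1 library gave these ranges of members passing. In βTC3 they were 0 to 0 for dox at 2 h, 24 to 28 for dox at 24 h, 0 to 5 for ALK7-CA at 2 h, 16 to 21 at 24 h, 6 to 13 at 24 h against no dox, 11 to 17 for the difference between times and 30 to 36 for activin B. In AJ they were 0 to 0 for dox at 2 h, 0 to 5 for dox at 24 h, 1 to 3 for ALK7-CA at 2 h, 17 to 20 at 24 h, 17 to 19 at 24 h against no dox, 8 to 13 for the difference between times, 17 to 21 for activin B in vector cells, 21 to 22 for ALK7 with dox, 20 to 23 for activin B in ALK7 cells and 2 to 4 for the ligand difference. Between the lines they were 30 to 34 and 39 to 40 in batches 1 and 2, 7 to 13 for the dox effect, 9 to 19 for ALK7-CA and 17 to 23 for activin B. Depth bears on Stc2 in βTC3, at most 1.21 CPM in any library there.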

Other observations

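Several gene groups around the ER were counted beside the chaperones. In βTC3 vector cells 10.6% of all genes rose and 12.7% fell at 24 h of dox, and 12.3% and 9.97% did so with activin B. Of 22 further genes of ER-associated degradation, 8 rose and 0 fell at 24 h of dox, and 1 and 3 with activin B. Among 13 sensors, proteases and transcription factors of the response, 6 rose and 2 fell at 24 h of dox, led by Creb3l2, a membrane-bound transcription factor gene (0.60, SE 0.0652, adjusted p = 4.08e-05). Crebrf, a regulator of the response, rose with activin B in βTC3 (0.47, adjusted p = 0.00191) and was higher in AJ cells with ALK7 and dox than in vector cells without dox (0.53, adjusted p = 0.000683).

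Of 13 genes of secretory cargo, 3 rose and 7 fell in βTC3 with activin B, among them the granin gene Scg2 (-0.83) and the glucagon gene Gcg (-1.81) lower and Scg3 (0.83) higher. The calcium release channel gene Ryr2, 1 of 7 genes of ER calcium handling, was higher with ALK7-CA at 24 h in βTC3 (1.58, SE 0.186, adjusted p = 4.68e-05), and 2 rose and 2 fell of that list with activin B. Of 10 mitochondrial chaperones and proteases 0 rose and 4 fell with ligand in AJ cells carrying ALK7, where 16.5% of all genes rose and 16.3% fell, for example Hspd1 (-0.58, adjusted p = 0.000545). Of 11 cytosolic heat shock genes 2 rose and 0 fell in βTC3 with activin B.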
